A study of Homo sapiens with 4 samples.

Results

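The 10 genes described here move or bind zinc, and were chosen by name as rows of the deposited count table: the importers SLC39A1, SLC39A6, SLC39A7, SLC39A10 and SLC39A14, the exporters SLC30A1 and SLC30A5, the metallothioneins MT2A and MT1X, and the zinc-sensing transcription factor MTF1. All 10 were found among the 57014 named rows, and all 10 passed the filter on low counts among 18043 genes tested. The cells were 22Rv1, a human prostate cancer line grown in medium with fetal bovine serum. Poly(A)-selected RNA was sequenced from 2 control libraries, with a wild-type genotype and the guide name sgGFP, and from 2 CD276 knockout libraries, with the guide name sgCD276, each group holding replicates 1 and 3. CD276 encodes B7-H3, a member of the B7 family of immune checkpoint proteins, and the comparison asks what else differs in this line once it is knocked out. The labels do not say whether a group was 1 clone or a pool, nor that replicates came from separate cultures, so the spread behind each p-value is that of the libraries and may be technical.

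Zinc enters the cytosol, from outside the cell or from organelles, through ZIP proteins (the SLC39 family) and leaves it, outward or into vesicles, through ZnT proteins (the SLC30 family). Free zinc in the cytosol is bound by metallothioneins, small proteins rich in cysteine. MTF1 binds zinc and then activates genes with metal response elements in their promoters, metallothioneins and SLC30A1 among them. Secretory cells of the normal prostate accumulate zinc, which inhibits their mitochondrial aconitase so that citrate is secreted, and prostate cancers usually lose this accumulation.

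Levels are normalized CPM (counts scaled to a library of 1e+06 after correction by trimmed means of M-values, TMM), given as mean ± SD of the 2 libraries of a group. Differences are knockout over control on the log2 scale, each ± SE. Rose and fell are used where the adjusted p (Benjamini-Hochberg, over all 18043 genes tested) of the quasi-likelihood test in edgeR was under 0.05. Libraries held 20079050 to 25802417 counts, so 1 CPM stood for 20.1 to 25.8 counts. The targeted gene CD276 was lower in both knockouts, at 47.4 and 54.4 normalized CPM in control replicates 1 and 3 and 23.6 and 26.2 in knockout replicates 1 and 3, a difference of -1.03 ± 0.16 on the log2 scale (edgeR adjusted p = 0.00561, but 0.0812 without control replicate 3). Markers of the luminal prostate were present in every library (FOLH1, which encodes prostate-specific membrane antigen, at 421 to 487 normalized CPM). Of 10 such markers tested, SLC45A3 rose (1.04 on the log2 scale, edgeR adjusted p = 0.00569), KRT18 fell (-0.68, edgeR adjusted p = 0.0370) and 8 were not called. PECAM1, CDH5, CD3E and MS4A1, which define endothelial cells and lymphocytes, had 0 counts in all 4 libraries, and the summed level of 8 leukocyte markers was 2.01 to 2.46 normalized CPM in control and 1.10 to 2.51 in knockout libraries. That of 6 endothelial markers was 0.981 to 1.48 and 0.271 to 0.838, and that of 8 fibroblast markers 54.4 to 60.6 and 34.5 to 47.9. Of the 5 fibroblast markers tested, COL1A1, which makes up most of that sum, fell (-1.001, edgeR adjusted p = 0.0139), LUM rose (0.84, edgeR adjusted p = 0.0244) and 3 were not called. Mitochondrial transcripts took 5.84% to 6.15% of counts in control and 1.46% to 1.78% in knockout libraries. MALAT1 took 0.218% to 0.255% of counts in control and 0.042% to 0.057% in knockout libraries. The part of these 2 differences, or of those in luminal and fibroblast markers, in the results below was not tested.

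Several zinc transporters were higher in the knockouts, while neither metallothionein passed the test. Of the 10 genes, 3 rose in the knockouts, the importers SLC39A14 (2.01-fold) and SLC39A6 (1.78-fold) and the exporter SLC30A1 (1.56-fold), where 9.87% of all genes tested rose. None of the 10 fell (0 by edgeR, 0 at an unadjusted p under 0.05 and 0 by DESeq2), where 12.9% of all genes fell. In 7 of the 10 both knockouts lay above both controls and in 1, SLC39A7, both lay below, while MT2A and MT1X overlapped. Over all genes tested 31.8% lay above, 34.1% below and 65.9% did not overlap in either direction. The median log2 fold change of the 10 was 0.40, against -0.0045 for all genes tested.

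The 3 calls need both control libraries, while their sizes moved little without either. Without control replicate 1 or without control replicate 3, SLC39A6, SLC39A14 and SLC30A1 were no longer called. Far fewer genes of the whole table were called in those fits as well. The log2 fold changes in those 2 fits were 0.85 and 0.81 for SLC39A6, 1.06 and 0.95 for SLC39A14 and 0.64 and 0.65 for SLC30A1. Without knockout replicate 1 they were 0.74 for SLC39A6, 0.68 for SLC39A14 and 0.57 for SLC30A1. Without knockout replicate 3 they were 0.99, 1.35 and 0.79 in that order. With 1 library left out, the spread of the lone library left in its group is taken from the other group. In bulk RNA, a different number of expressing cells and a different amount of RNA per cell cannot be told apart.

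**Figure D1:**
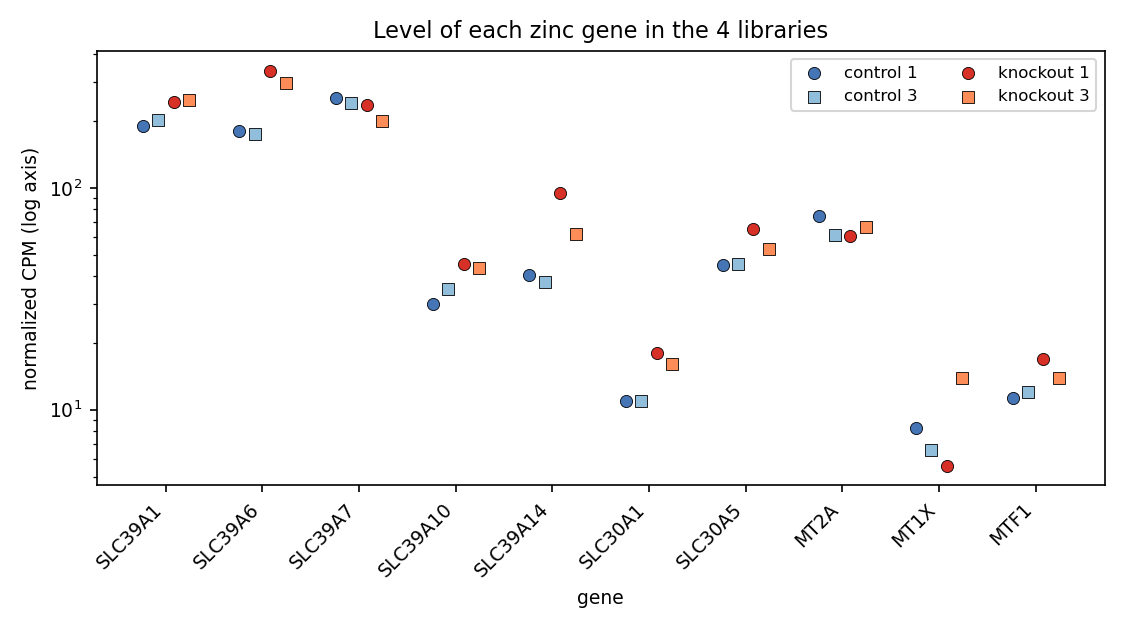
Level of each of the 10 zinc genes in the 4 libraries, in normalized CPM on a log axis (circles, replicate 1; squares, replicate 3; blue, control; red and orange, knockout). The knockout points of SLC39A6 (296 and 338) and SLC39A14 (62.0 and 95.2) stand clear of the control points, one of the 2 of MT2A lies between the controls and the other just below them (60.8), and the 2 knockout points of MT1X (5.60 and 13.9) lie on either side of its control points.

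Among the importers, SLC39A6 showed the difference with the smallest adjusted p of the 10 genes. SLC39A6 (chromosome 18, 36108532 to 36129385, minus strand, GRCh38) encodes LIV-1 or ZIP6, a plasma membrane importer known as an estrogen-regulated gene of breast cancer. It was at 180.5 and 176 normalized CPM in control replicates 1 and 3 and at 338 and 296 in knockout replicates 1 and 3. The controls differed from each other by far less than either differed from the knockouts. The group levels of SLC39A6 were 178 ± 3.34 and 317 ± 29.99, a log2 fold change of 0.83 ± 0.15 with an edgeR adjusted p of 0.00793.

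SLC39A14 had the largest fold change of the 10 and a wide gap between its knockout libraries. SLC39A14 (chromosome 8, 22367249 to 22434129, plus strand) encodes ZIP14, which carries iron and manganese as well as zinc. Its level was 40.6 and 37.5 normalized CPM in control replicates 1 and 3 and 95.2 and 62.0 in knockout replicates 1 and 3. Both knockouts were above both controls, with knockout replicate 1 at 1.54 times knockout replicate 3. The log2 fold change of SLC39A14 was 1.01 ± 0.20 (edgeR adjusted p = 0.0120), and it was 0.68 without knockout replicate 1 and 1.35 without knockout replicate 3.

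SLC39A10 and SLC39A1 were higher in both knockouts by less, and neither passed the test. SLC39A10 (chromosome 2, 195575977 to 195737702, plus strand) encodes ZIP10, a close relative of ZIP6 that can pair with it at the plasma membrane. It was at 30.1 and 35.0 normalized CPM in control replicates 1 and 3 and at 45.3 and 43.3 in knockout replicates 1 and 3, a log2 fold change of 0.45 ± 0.15 with an edgeR adjusted p of 0.0651. SLC39A10 passed the threshold when libraries were scaled by totals alone (log2 fold change 0.56, adjusted p = 0.0454) and with no filter on low counts (0.47, adjusted p = 0.0421).

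SLC39A1 (chromosome 1, 153959099 to 153968184, minus strand) encodes ZIP1, regarded as a main zinc importer of prostate epithelium. Its level was 189 and 202 normalized CPM in control replicates 1 and 3 and 244 and 248 in knockout replicates 1 and 3, a log2 fold change of 0.33 ± 0.14 with an edgeR adjusted p of 0.111. The 2 knockouts were nearly equal and stood above both controls. SLC39A1 shares 60.8% of its exonic bases with AL358472.7, a gene annotated on the same strand, and 8.26% with CREB3L4 on the opposite strand, so its count depends on how reads in the shared bases were assigned, which the submitters' notes do not state.

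SLC39A7 lay on the other side. SLC39A7 (chromosome 6, 33200445 to 33204439, plus strand) encodes ZIP7, which releases zinc from the endoplasmic reticulum and Golgi into the cytosol. It was at 253 and 241 normalized CPM in control replicates 1 and 3 and at 236 and 199.7 in knockout replicates 1 and 3, a log2 fold change of -0.18 ± 0.15 that did not pass the test (edgeR adjusted p = 0.400). Knockout replicate 1 was barely below the controls and knockout replicate 3 clearly below. Without knockout replicate 1 SLC39A7 was called lower (-0.30, edgeR adjusted p = 0.0118), and without knockout replicate 3 its log2 fold change was 0.00123 (adjusted p = 0.992). Of its exonic bases, 8.58% are shared with RXRB on the opposite strand.

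Both knockouts lay above both controls for both exporters, and SLC30A1 passed the test. SLC30A1 (chromosome 1, 211571568 to 211578742, minus strand) encodes ZnT1, the exporter of the plasma membrane and a known target of MTF1. It was at 10.9 and 10.9 normalized CPM in control replicates 1 and 3 and at 18.1 and 16.1 in knockout replicates 1 and 3. The controls were almost identical, and the knockouts stood well apart from them. Its levels of 10.9 ± 0.013 and 17.1 ± 1.39 gave a log2 fold change of 0.65 ± 0.18 with an edgeR adjusted p of 0.0343, a call that was missed once each library was corrected for GC content and transcript length (0.47, edgeR adjusted p = 0.0680).

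SLC30A5 (chromosome 5, 69093646 to 69131069, plus strand) encodes ZnT5, which pairs with ZnT6 to supply zinc to enzymes of the secretory pathway. Its level was 44.8 and 45.2 normalized CPM in control replicates 1 and 3 and 65.5 and 53.2 in knockout replicates 1 and 3. Both knockouts were above the controls but differed from each other, and the log2 fold change of SLC30A5, 0.40 ± 0.15, did not pass (edgeR adjusted p = 0.0897). It shares 9.20% of its exonic bases with AC010273.1 on the opposite strand.

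**Figure D2:**
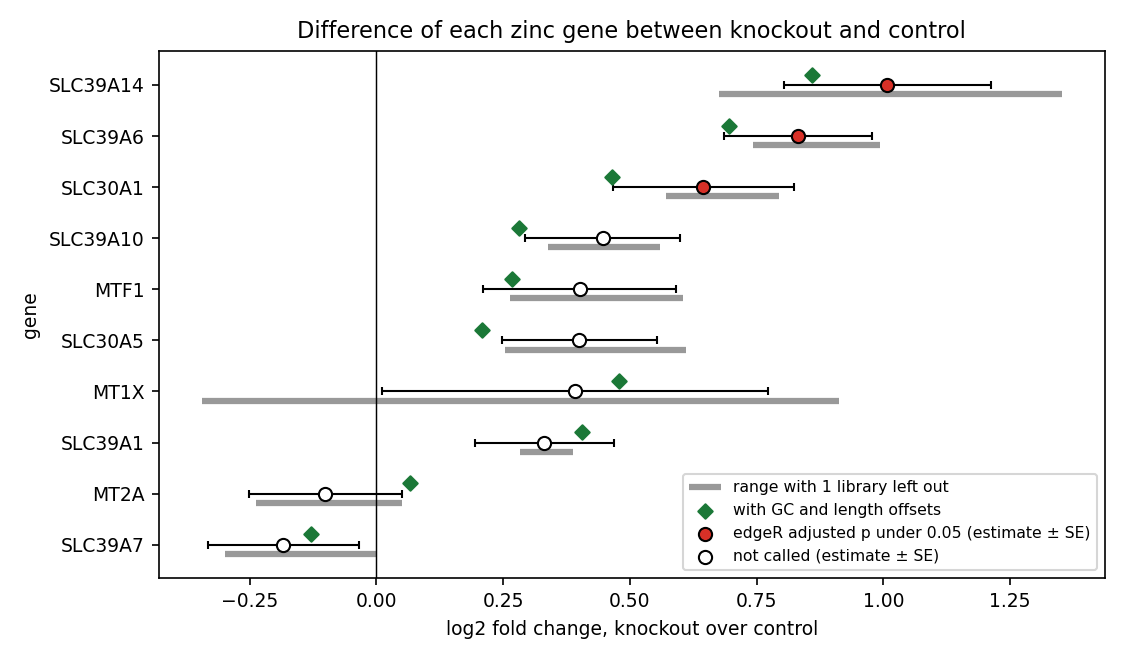
Log2 fold change of knockout over control for the 10 genes with its SE (circles, red where the edgeR adjusted p is under 0.05), with GC and length offsets (green diamonds), and as the range over fits with 1 library left out (grey bars). SLC39A14, SLC39A6 and SLC30A1 are red, and the grey bar of MT1X runs from -0.34 to 0.91.

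The metallothioneins did not separate the groups. MT2A (chromosome 16, 56608199 to 56609497, plus strand) had the most counts of the 11 metallothionein genes in every library. It was at 75.1 and 61.4 normalized CPM in control replicates 1 and 3 and at 60.8 and 66.5 in knockout replicates 1 and 3. The highest library was a control and the lowest a knockout, with the other control and the other knockout between them. The log2 fold change of MT2A was -0.10 ± 0.15 (edgeR adjusted p = 0.663), and its sign was positive when scaled by library totals alone (0.0054) and with GC and length offsets (0.07).

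MT1X (chromosome 16, 56682424 to 56684196, plus strand) encodes a metallothionein 1 isoform. Its counts were 184 and 128 in control replicates 1 and 3 and 147 and 360 in knockout replicates 1 and 3, or 8.24, 6.61, 5.60 and 13.9 normalized CPM in that order. Knockout replicate 1 was the lowest library and knockout replicate 3 the highest, at 2.49 times the other knockout. The log2 fold change of MT1X was 0.39 ± 0.38 (edgeR adjusted p = 0.485). It was 0.91 without knockout replicate 1 (adjusted p = 3.10e-06) and -0.34 without knockout replicate 3 (adjusted p = 0.187). MT1X shares 18.1% of its exonic bases with AC026461.1 on the same strand.

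The make-up of the metallothionein transcripts was unlike the others in 1 library. Of the reads counted on 11 metallothionein genes, MT2A took 64.6% and 66.4% in control replicates 1 and 3 and 62.6% and 60.3% in knockout replicates 1 and 3. MT1X took 7.09% (95% Wilson interval 6.17 to 8.14) and 7.15% (6.05 to 8.44) in the controls, 5.77% (4.93 to 6.74) in knockout replicate 1 and 12.6% (11.4 to 13.9) in knockout replicate 3. The share in knockout replicate 3 stood apart from the other 3 beyond counting error, which is all these intervals cover. The summed level of the 11 genes was 116 and 92.4 normalized CPM in control replicates 1 and 3 and 97.1 and 110.3 in knockout replicates 1 and 3, so the 2 groups overlapped.

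**Figure D3:**
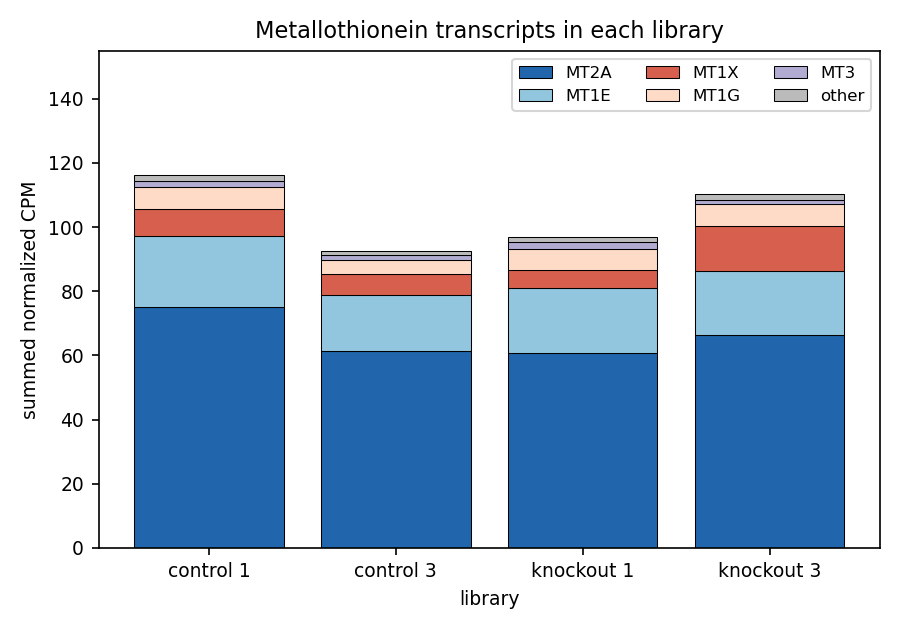
Summed level of metallothionein transcripts in each library in normalized CPM, stacked by gene. The totals run from 92.4 to 116 with both groups overlapping, and the MT1X segment is widest in knockout replicate 3.

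The promoters of the known MTF1 targets are printed to show their metal response element cores beside these values: the SLC30A1 transcript rose while those of MT2A and MT1X did not pass the test, a contrast between genes that was not itself tested. Each sequence is the 250 bases before the RefSeq start of the gene (GRCh38.p14), 5′ to 3′ on the strand of the gene, with matches to TGCACNC or TGCGCNC on either strand in capitals. The windows are chr16:56608334-56608583 (plus strand) for MT2A, chr16:56682220-56682469 (plus strand) for MT1X and chr1:211579162-211579411 (minus strand) for SLC30A1. RefSeq starts differ from the GENCODE gene bounds given above. The MT2A window lies inside its gene, which begins at 56608199, and the MT1X window runs past its gene's start at 56682424. The SLC30A1 window lies wholly before its gene, which begins at 211578742, and the bases between were not searched. The numbers of matches thus come from windows placed differently against these bounds.
MT2A: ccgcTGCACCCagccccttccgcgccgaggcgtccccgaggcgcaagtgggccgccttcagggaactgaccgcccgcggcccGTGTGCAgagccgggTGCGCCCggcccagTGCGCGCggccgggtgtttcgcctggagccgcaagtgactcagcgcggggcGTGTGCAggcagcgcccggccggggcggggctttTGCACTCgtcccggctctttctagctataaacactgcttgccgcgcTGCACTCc
MT1X: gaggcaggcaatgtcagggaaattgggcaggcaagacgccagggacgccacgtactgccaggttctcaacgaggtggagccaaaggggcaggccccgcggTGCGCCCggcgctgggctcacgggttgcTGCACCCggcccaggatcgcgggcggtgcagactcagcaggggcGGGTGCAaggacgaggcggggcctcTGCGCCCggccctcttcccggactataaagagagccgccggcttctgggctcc
SLC30A1: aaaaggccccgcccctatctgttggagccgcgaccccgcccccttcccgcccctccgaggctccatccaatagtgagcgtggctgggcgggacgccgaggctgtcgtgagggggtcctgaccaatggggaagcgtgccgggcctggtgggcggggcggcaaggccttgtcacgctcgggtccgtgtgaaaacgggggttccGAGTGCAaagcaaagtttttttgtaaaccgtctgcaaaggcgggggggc
MT2A held 7 matches, 5 on the gene's strand and 2 on the other, and MT1X held 4, 3 and 1. SLC30A1 held 1, on the other strand, 49 to 43 bases before the start. No matches overlapped. Of 35116 RefSeq windows of this length, 24.8% held at least 1 match, 0.370% at least 4 and 0.031% at least 7. These were not matched for GC content, which was 73.2% for MT2A, 70.0% for MT1X and 66.4% for SLC30A1. Among the other metallothioneins, windows were found for MT1H, MT1B and MT4, with 8, 3 and 3 matches. MT1H had 1 to 6 counts a library, and MT1B and MT4 had 0. A window was found for 9 of the 10 genes. SLC39A6 and 1 of the 2 windows of SLC39A1 held 1 match, and those of SLC39A7, SLC39A10, SLC30A5 and MTF1 held 0. A match is a description of these letters and not of a bound site, and a window with 0 matches says only that these letters are not in it.

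MTF1, the factor that reads these elements, was itself above both controls in both knockouts but did not pass the test. MTF1 (chromosome 1, 37809567 to 37859620, minus strand) was at 11.2 and 12.1 normalized CPM in control replicates 1 and 3 and at 16.9 and 13.9 in knockout replicates 1 and 3. The knockouts stood above the controls, knockout replicate 3 by a small margin. The log2 fold change of MTF1 was 0.40 ± 0.19 (edgeR adjusted p = 0.157). Its mRNA level does not report its zinc-bound activity.

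Per kilobase of annotated exon, SLC39A7 was the most abundant of the 10 transcripts in the controls, at 84.9 to 89.1 normalized CPM per kilobase. SLC39A1 (55.9 to 59.6), MT2A (47.3 to 57.8) and SLC39A6 (47.7 to 49.0) followed, and the ranges of SLC39A1 and MT2A overlapped, as did those of MT2A and SLC39A6. SLC30A5 (7.74 to 7.81), SLC39A14 (5.41 to 5.85), SLC39A10 (4.35 to 5.06) and MT1X (3.73 to 4.65) formed a lower tier, in which SLC39A10 and MT1X overlapped. SLC30A1 (2.00) and MTF1 (1.40 to 1.51) were lowest. In the knockouts SLC39A6 had the highest mean, 86.1 ± 8.14 normalized CPM per kilobase, but its range of 80.3 to 91.8 overlapped that of SLC39A7, 70.2 to 83.0. These levels divide by all annotated exons of a gene, which for MT2A (1299 bases) and MT1X (1773 bases) cover the whole span of the gene. The longest annotated transcript of MT2A is 903 bases, so its level per kilobase of transcript is understated. The place of MT2A beside SLC39A1 and SLC39A6 in this order depends on that divisor. Those of SLC39A1 and MT1X also depend on how reads in exonic bases shared with same-strand genes (60.8% and 18.1%) were assigned.

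The 2 knockout libraries differed from each other in some of the 10 genes. SLC39A1, MT2A and MT1X were lower in knockout replicate 1 than in knockout replicate 3, and the other members were higher. The same share over all genes was not computed, so this order is not read as a trait of the 10. Relative to the mean of the controls, on the scale of log2 with 0.5 CPM added, SLC39A14 stood at 1.27 in knockout replicate 1 and 0.66 in knockout replicate 3, SLC30A5 at 0.54 and 0.24, and MTF1 at 0.52 and 0.24. MT1X stood at -0.38 and 0.86 in that order. SLC39A10 (0.47 and 0.41) and SLC39A1 (0.32 and 0.34) differed little between the 2 libraries.

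GC content differed among the 10 genes and moved with the difference between the groups across the transcriptome. The median log2 fold change was 0.08 for the 2785 tested genes under 40% GC, 0.07 for the 9699 genes at 40% to 55% and -0.18 for the 5305 genes over 55%. The longest transcripts of SLC39A10 (37.6%), SLC30A1 (37.98%), SLC30A5 (39.95%) and SLC39A6 (41.6%) are low in GC, and those of MT1X (53.7%), MT2A (53.9%), SLC39A7 (55.1%) and SLC39A1 (57.2%) are higher. With offsets for GC content and length in each library, 3 of the 10 were still called higher, beside 10.8% of all genes tested. They were now SLC39A6 (0.70, edgeR adjusted p = 0.00698), SLC39A14 (0.86, edgeR adjusted p = 0.00845) and SLC39A1 (0.41, edgeR adjusted p = 0.0421). SLC30A5 stood at 0.21 (edgeR adjusted p = 0.255) and SLC39A10 at 0.28 (edgeR adjusted p = 0.173) in that fit.

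**Figure D4:**
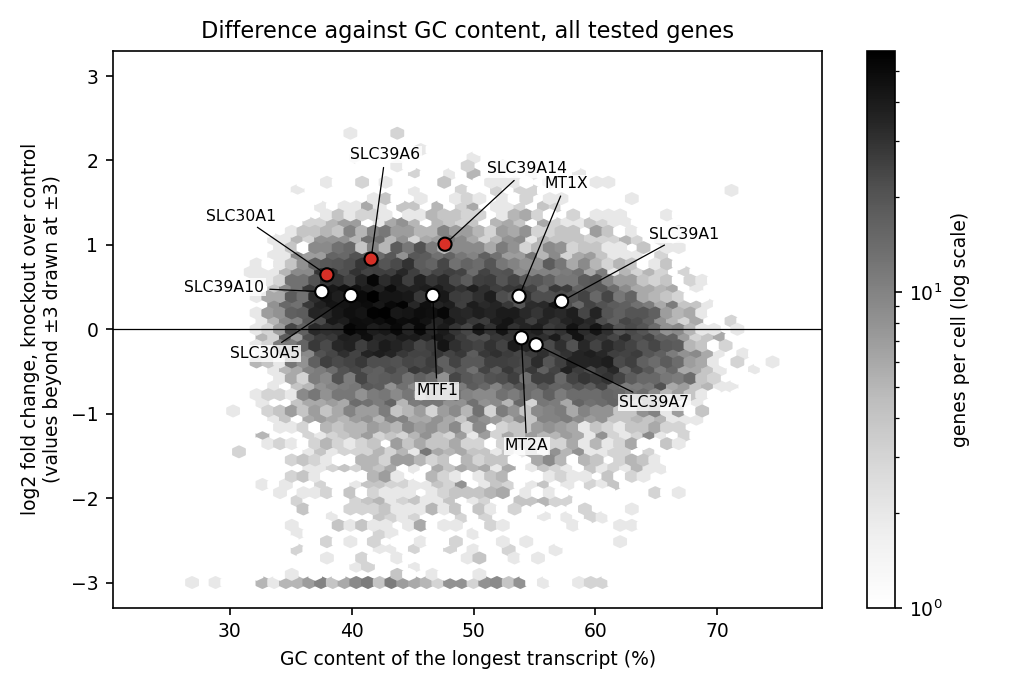
Log2 fold change of knockout over control against the GC content of the longest transcript, for all tested genes with a value (grey, darker where more genes lie) and the 10 zinc genes (red where the edgeR adjusted p is under 0.05). The median of all genes is 0.08 under 40% GC and -0.18 over 55% GC, and SLC39A6, SLC39A14 and SLC30A1 lie in the upper part of the grey cloud.

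Over the 2 whole transporter families, ZIP genes gave calls in both directions and ZnT genes gave higher calls only. Of 12 ZIP genes tested, those above included, 4 rose, 1 fell and 7 were not called, with a median log2 fold change of 0.39. The 7 ZIP genes tested outside the 10 had a median of -0.16, so the positive family median rests on the members. Of 9 ZnT genes tested, 3 rose, 0 fell and 6 were not called, with a median of 0.60; 0 fell at an unadjusted p under 0.05 or by DESeq2. SLC39A2, SLC39A12 and SLC30A8 had too few counts to be tested. The background of 9.87% higher and 12.9% lower applies to these counts as well. The summed level of all 14 ZIP genes was 973 and 972 normalized CPM in control replicates 1 and 3 and 1271 and 1160 in knockout replicates 1 and 3 (1.25 times the controls as a ratio of means), and that of all 10 ZnT genes was 157 and 159 (control) and 252 and 228 (knockout) (1.52 times). Both knockouts lay above both controls in each sum. For the 9 ZIP genes outside the 10 they did so by less. That sum was 279 and 281 normalized CPM in control replicates 1 and 3 and 311 and 311 in knockout replicates 1 and 3.

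Among the other importers, SLC39A8, SLC39A9 and SLC39A4 passed the test. SLC39A8, which encodes ZIP8, a carrier of manganese and cadmium as well as zinc, rose from 81.1 ± 1.89 to 123 ± 16.6 normalized CPM (0.60 ± 0.15, edgeR adjusted p = 0.0225). SLC39A9, an importer of the Golgi and plasma membrane, rose from 37.4 ± 0.514 to 57.7 ± 8.94 (0.63 ± 0.16, edgeR adjusted p = 0.0249). SLC39A4, the intestinal zinc importer mutated in acrodermatitis enteropathica, fell from 64.8 ± 3.43 to 41.2 ± 8.60 (-0.65 ± 0.17, edgeR adjusted p = 0.0284). SLC39A3, a plasma membrane importer, was at 54.5 ± 8.97 and 48.9 ± 9.20 and was not called. Of the 7 other importers tested, 2 rose, 1 fell and 4 were not called.

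Among the other ZnT genes, SLC30A9 and SLC30A6 rose. SLC30A9, a transporter that exports zinc from mitochondria, was at 64.2 and 67.6 normalized CPM in control replicates 1 and 3 and at 115 and 116 in knockout replicates 1 and 3 (0.81 ± 0.13, edgeR adjusted p = 0.00649). Both groups were tight, and the gap between them was wide. SLC30A6, the ZnT5 partner, rose from 13.5 ± 0.133 to 23.3 ± 4.26 normalized CPM (0.79 ± 0.19, edgeR adjusted p = 0.0210), while SLC30A5 itself, at 0.40 ± 0.15, did not pass, and the difference between the partners was not tested. SLC30A7, a ZnT of the early secretory pathway, was at 17.5 ± 1.70 and 17.6 ± 3.67. Of the 7 others tested, 2 rose, 0 fell and 5 were not called. The calls of these 5 genes, SLC39A8, SLC39A9, SLC39A4, SLC30A9 and SLC30A6, were lost without control replicate 1 and without control replicate 3, with edgeR adjusted p of 0.102 to 0.301, while their log2 fold changes stayed close: 0.62 and 0.58 for SLC39A8, 0.64 and 0.61 for SLC39A9, -0.60 and -0.70 for SLC39A4, 0.77 and 0.85 for SLC30A9 and 0.77 and 0.80 for SLC30A6. All 5 calls held with GC and length offsets.

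**Figure D5:**
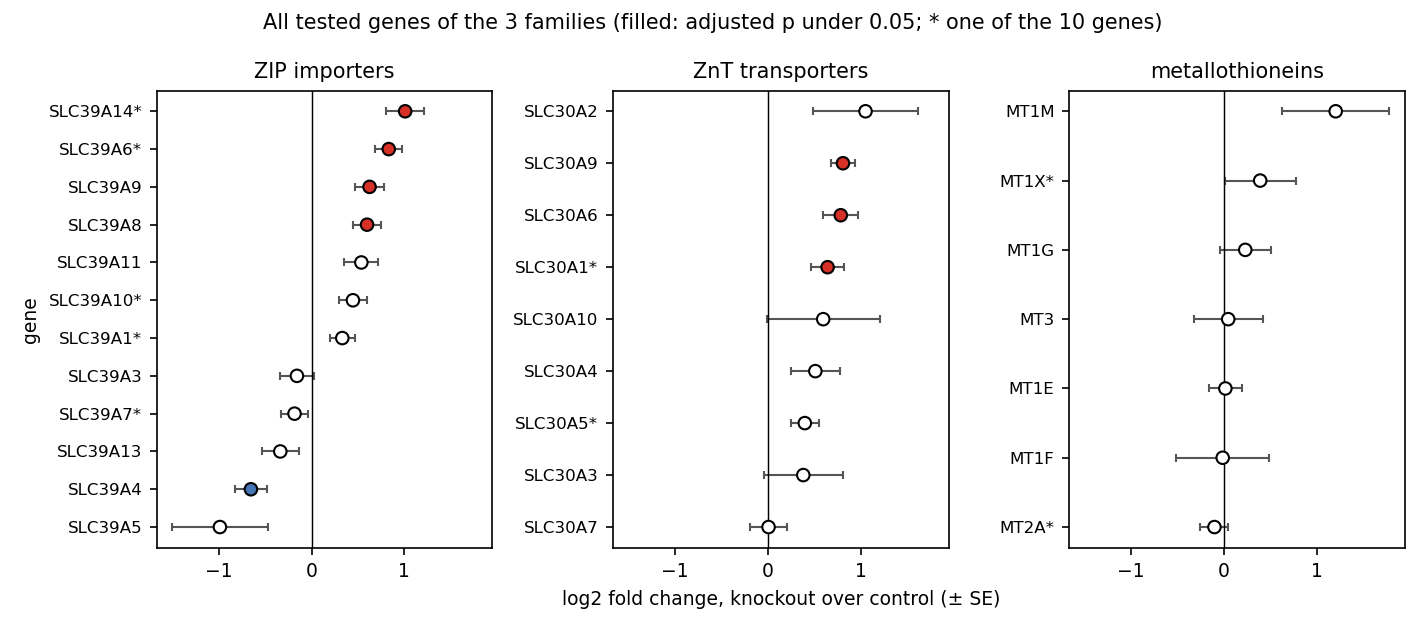
Log2 fold change of knockout over control ± SE for every tested ZIP importer, ZnT transporter and metallothionein (red, higher and blue, lower at an edgeR adjusted p under 0.05; open, not called; asterisk, one of the 10 genes). Filled points appear in the transporter families, 7 red and 1 blue, and all 7 metallothioneins are open.

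The remaining metallothioneins were not called either. Of 7 metallothionein genes tested, 0 rose and 0 fell by edgeR, with 0 and 0 at an unadjusted p under 0.05 and 0 and 0 by DESeq2, beside 9.87% higher and 12.9% lower over all genes. MT1M, named after its values were seen, was the one tested metallothionein with both knockouts above both controls, on 6 and 7 counts in control replicates 1 and 3 and 23 and 15 in knockout replicates 1 and 3 (1.20 ± 0.58, edgeR adjusted p = 0.162). MT1E was at 19.8 ± 3.44 and 20.0 ± 0.113 normalized CPM, MT1G at 5.69 ± 1.84 and 6.70 ± 0.044, and MT3, the brain isoform, at 1.74 ± 0.198 and 1.80 ± 0.415. MT1B and MT4 had 0 counts in all 4 libraries, which allows a level of up to 0.155 normalized CPM (3 counts) in the shallowest library. Of 8 metallothionein pseudogenes in the table, 0 had enough counts to be tested and 3 had none. Of 3 other zinc handling genes tested, 0 were called by edgeR (0 at an unadjusted p under 0.05 and 0 by DESeq2): the zinc chaperone gene CBWD1 was at 100.1 ± 0.790 and 110.2 ± 3.26 normalized CPM, its near copy CBWD2 at 26.3 ± 0.551 and 27.5 ± 0.047, and TRPM7, a channel for divalent cations, at 52.4 ± 5.32 and 41.2 ± 8.71. TRPM7, at -0.35 on the log2 scale, was called lower with GC and length offsets (-0.45, edgeR adjusted p = 0.0435) and without knockout replicate 1 (-0.57, edgeR adjusted p = 3.95e-06), and stood at -0.08 without knockout replicate 3 (edgeR adjusted p = 0.570). CBWD1 and CBWD2 share 38.6% and 59.1% of their 100-base stretches with transcripts of any other gene, not of each other alone. Reads in those stretches could belong to more than 1 gene.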

How the data were processed

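Whole-number raw counts by gene name were deposited by the authors for 2 control and 2 CD276 knockout libraries. The submitters' processing notes name Trimmomatic 0.36 for trimming, STAR 2.5.2b for alignment to GRCh38 and featureCounts (Subread 1.5.2) for counting. How strand and multi-mapping reads were treated, and which annotation was counted, is not stated there. The 486 rows with no name (0.0191% to 0.0290% of counts) were left out, and 0 columns had no sample. Genes passing filterByExpr were tested with edgeR 4.0.16 in R 4.3.3 (TMM scaling, glmQLFit with robust=TRUE, a model of group alone with 2 residual df) and p-values were adjusted by Benjamini-Hochberg across the 18043 genes. The SE is the log2 fold change over the square root of F. Positions, exon length, exon overlap and GC content came from GENCODE 29 on GRCh38, and promoters from RefSeq on GRCh38.p14. GC and length offsets were a local regression (span 0.3) in each library, over 17789 genes.

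Simulated counts held 200 changed genes among 17681, 17681 and 17680 tested, with changes of 1.5-fold, 2-fold and 4-fold. Of these changes 0.5%, 62.5% and 94.0% were recovered, with 0, 8 and 8 false calls. The data gave many more calls, 1780 higher and 2331 lower, and a Benjamini-Hochberg cutoff depends on that number. SLC39A8 at 1.51-fold and SLC30A1 at 1.56-fold were called in the data, while SLC39A10 at 1.36-fold was not. How often the data miss or falsely call a change of a given size was thus not measured. Changes well under 2-fold can still be missed. The 10 genes and the lists were chosen with earlier results of these data known. Besides the 10 and CD276, the rule names each called gene of the other zinc lists and the 3 with the highest level in each list. Cell type markers, genes at 0 and untested genes were named after their values were seen. Alternatives were RLE, upper quartile and total scaling, no filter, a filter of 50 counts in all libraries of either group, DESeq2 1.42.0, voom in limma 3.58.1, robust=FALSE, a replicate block, the offsets, and leaving out each library.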

Additional observations from a re-analysis of the deposited data

How the results depend on the processing

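Of the 10 genes, 3 or 4 were higher and 0 lower under each alternative that kept every library. These were 3 scalings, 2 filters, 2 tools, robust=FALSE, the replicate block and GC and length offsets. Apart from DESeq2, 7.75% to 13% of all genes tested were higher and 8.77% to 15.8% lower in those fits. With DESeq2 the shares were 3.52% and 3.36% of all 57014 named rows, untested rows included. With the offsets SLC30A1 was not called and SLC39A1 was. Leaving out each library in turn gave 0 to 7 higher and 0 to 1 lower, 45 to 4795 genes higher and 267 to 4471 lower in the whole table, and a CD276 log2 fold change of -1.13 to -0.92. Library totals alone moved the median of all genes from -0.0045 to 0.10 and the split from 1780 higher and 2331 lower to 2340 and 1781. The log2 fold change of MT2A, -0.10, was 0.0054 with library totals, 0.067 with GC and length offsets and -0.24 to 0.050 with 1 library left out. With 1 library left out, SLC39A7 ran from -0.30 to 0.0012, MT1X from -0.34 to 0.91, SLC39A3 from -0.32 to 0.037, SLC30A7 from -0.21 to 0.27, MT1E from -0.15 to 0.21, MT1G from -0.060 to 0.61 and MT3 from -0.20 to 0.33. SLC30A7, at 0.0094, stood at -0.020 with upper quartile scaling, -0.030 with at least 50 counts, -0.0054 with voom, -0.00058 with the replicate block and -0.13 with GC and length offsets. MT1E, at 0.017, stood at -0.011 with upper quartile scaling and -0.022 with at least 50 counts, and CBWD2, at 0.064, at -0.057 with GC and length offsets. The cause of these changes was not tested. Of the values of the 10 genes under the alternatives, 116 kept direction and call, 12 gained a call, 7 lost one and 5 changed sign.

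Whether same-numbered libraries were prepared as pairs is not given in the labels. Deviations of same-numbered libraries from their group means correlated at -0.03 across genes, so no shared shift was seen. With 2 libraries in each group this is a single correlation, which cannot show whether they were paired. With the replicate number as a block 2062 genes were higher and 2781 lower, 3 of the 10 higher and 0 lower, and CD276 stood at -1.03; the block changed no call among the 10. Depth limits MT1X, SLC30A1 and MTF1 most, at 128 to 475 counts a library.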
